A study of Mus musculus with 60 samples.

Results

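The genes described here were taken, by symbol alone, as nuclear-encoded subunits of the mitochondrial oxidative phosphorylation system. They were measured by RNA sequencing of mouse prefrontal cortex. Members were the protein-coding genes of the GENCODE M21 annotation whose symbols name subunits of complexes I to V (the Nduf, Sdh, Uqcr, Cyc1, Cox4 to Cox8 and Atp5 families), provided that 5 or more libraries had a value of 10 or higher. There were 81 such members among the 17810 genes that passed this filter: 36 in complex I, 4 in complex II, 9 in complex III, 15 in complex IV and 17 in complex V. Every matching gene in the table passed the filter. Cox7b2, Cox8b and Cox8c also match the symbols but were not analysed here.

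Oxidative phosphorylation makes most of the ATP that neurons spend on ion pumping and synaptic transmission. Complexes I and II pass electrons from NADH and succinate to ubiquinone, complex III passes them on to cytochrome c, and complex IV passes them to oxygen. Complexes I, III and IV pump protons across the inner mitochondrial membrane, and complex V, the ATP synthase, uses their return to make ATP. All complexes but the second also contain subunits made from mitochondrial DNA, so the nuclear genes described here supply only part of each machine.

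The mice were C57BL/6J, on postnatal day 25, and of either wild-type genotype (WT) or with 1 copy (Het) of C456Y, a missense allele of the NMDA receptor subunit gene Grin2b. Pups received vehicle, fluoxetine (a serotonin reuptake inhibitor) or lithium (a mood stabiliser) by way of maternal milk for 3 weeks, from postnatal day 3 to 24. The 2 genotypes, 3 treatments and 2 sexes gave 12 groups of 5 libraries, so that a comparison averaged over the sexes set 10 libraries against 10. The labels number the replicates without saying whether they were separate animals or litters, so the p-values measure the spread between these samples. All 8 excitatory neuron markers checked were measured in every group, with summed normalised read counts of 160364 to 230124 in WT vehicle libraries. The libraries held 23901635 to 37769417 reads, of which the members took 0.764% to 1.15%. The median number of reads of a member ran from 13.5 for the lowest to 25506 for the highest.

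Many promoters of these genes are known to carry sites for the transcription factors NRF1, GABPA of the ETS family, YY1 and the oestrogen-related receptors (ERR). The RefSeq promoter table for GRCm38.p6 (250 bases before to 50 after the start) held 66 of the 81 members. The letters CATGCGC, the NRF1 core, stood on either strand in 13 of them (19.7%), against 5.39% of 17491 coding genes with windows of the same length. The ETS letters CCGGAAG were found in 16 members (24.2%, against 12.9%), the YY1 letters ATGGCG in 17 (25.8%, against 12.4%) and the ERR letters AAGGTCA in 8 (12.1%, against 4.73%). The 4 stretches printed next are the 250 bases before the start of 4 members whose RNA was lower in Het mice given fluoxetine. Their capitals mark every match within the printed bases. Where CATGCGC stands on both strands at one place, its copies overlap and form one longer run of capitals.
Atp5k, chr5:108434400-108434649, minus strand: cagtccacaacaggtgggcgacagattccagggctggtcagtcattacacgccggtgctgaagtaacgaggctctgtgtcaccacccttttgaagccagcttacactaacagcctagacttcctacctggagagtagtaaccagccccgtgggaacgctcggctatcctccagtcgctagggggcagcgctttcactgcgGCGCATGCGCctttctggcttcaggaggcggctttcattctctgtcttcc
Cox6a1, chr5:115348959-115349208, minus strand: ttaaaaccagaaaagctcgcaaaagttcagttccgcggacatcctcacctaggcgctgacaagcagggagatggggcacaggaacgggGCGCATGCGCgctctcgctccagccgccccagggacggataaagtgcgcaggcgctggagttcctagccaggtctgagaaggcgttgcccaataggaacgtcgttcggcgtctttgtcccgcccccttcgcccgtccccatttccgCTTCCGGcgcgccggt
Ndufa6, chr15:82354292-82354541, minus strand: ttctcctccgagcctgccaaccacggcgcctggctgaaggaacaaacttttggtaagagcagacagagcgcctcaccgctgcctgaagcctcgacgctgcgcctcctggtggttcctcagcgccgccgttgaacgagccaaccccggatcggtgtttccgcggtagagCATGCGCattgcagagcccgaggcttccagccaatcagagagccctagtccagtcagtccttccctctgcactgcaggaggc
Atp5g1, chr11:96075632-96075881, minus strand: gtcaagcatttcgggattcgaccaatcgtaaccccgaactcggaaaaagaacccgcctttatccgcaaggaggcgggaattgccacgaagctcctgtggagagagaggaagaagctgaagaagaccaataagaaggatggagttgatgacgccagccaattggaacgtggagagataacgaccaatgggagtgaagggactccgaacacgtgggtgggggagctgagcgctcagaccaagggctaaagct
Atp5k (subunit e of the ATP synthase) and Cox6a1 (a nuclear subunit of cytochrome c oxidase) carry CATGCGC on both strands at one place, and Cox6a1 carries an ETS match close to its start. Ndufa6, an accessory subunit of complex I, carries CATGCGC on 1 strand and no other motif, and Atp5g1, which encodes the c ring protein of the ATP synthase, carries none of the 4 motifs. Outside the printed bases, in the 50 after the start, Atp5k also has an ETS and an ERR match and Cox6a1 a YY1 match. The members that were lower thus include promoters with and without these letters, which are matches in a window and not measured binding sites.

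Levels of different members were compared per kilobase of coding length in WT vehicle libraries, as means ± SD (n = 10). Complex IV and complex V genes stood highest, with medians over their members of 11335 and 7948 normalised reads per kilobase of coding sequence. The medians were 3300 for complex I, 3993 for complex II and 4302 for complex III. Cox8a, a small subunit of cytochrome c oxidase, was the highest member at 47788 ± 6530, and Cox4i1 (22112 ± 2049) and Cox6a1 (21722 ± 2668) followed, and these last 2 overlap within their SD. The tissue-restricted isoforms of complex IV were at the other end, with Cox6a2, the muscle isoform, at 416 ± 61.5. Cox6b2 (73.2 ± 18.6), Cox4i2 (67.7 ± 10.5) and Cox7a1 (47.2 ± 17.9) came last, and their levels also overlap. Per kilobase of the longest transcript, the measure first planned, the medians were 1544, 1921, 2358, 2871 and 2609 for complexes I to V. Complex IV thus stayed highest while the gap to the others narrowed. By that measure Cox8a (17986 ± 2458) and Cox4i1 (14655 ± 1358) stayed highest. Atp5b (13410 ± 755) then stood above Cox6a1 (11772 ± 1446), and these 2 overlap within their SD.

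**Figure D1:**
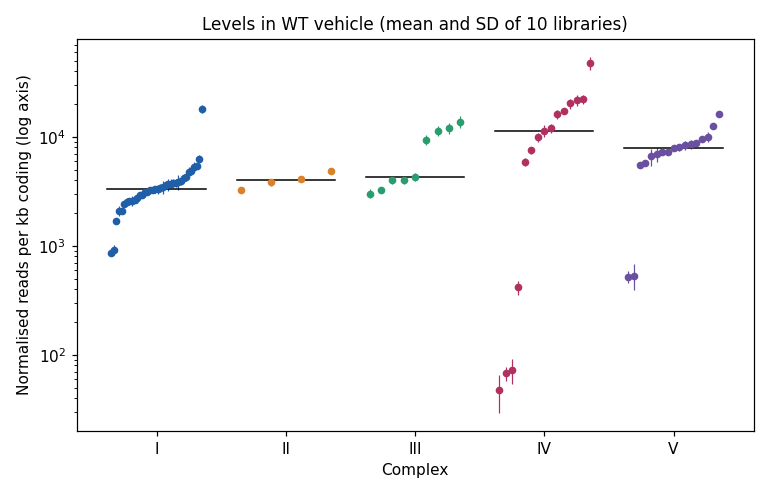
Normalised reads per kilobase of coding sequence in WT vehicle libraries (log axis) for each member, grouped by complex. Points are means of 10 libraries with SD, and black bars are the medians over members: 3300, 3993, 4302, 11335 and 7948 for complexes I to V. The low points of complex IV are the isoforms Cox6a2, Cox6b2, Cox4i2 and Cox7a1.

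Members also differed in how steady they were within groups. Sdha, the flavoprotein of complex II, varied least, with a within-group SD of 0.046 on the log2 scale. Cox7a1 (0.59), Atp5g2 (0.51) and Cox4i2 (0.32) varied most, and are among the members with the fewest reads. Atp5g2 is 1 of the 3 genes for the c ring protein. Its normalised read count in WT lithium libraries ran from 30.4 to 293.2 around a median of 183.1.

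The question of whether fluoxetine changed these genes in Het mice gave the largest number of calls among the 10 comparisons made. Het mice given fluoxetine had less RNA of 51 members and more of 2 than Het mice given vehicle, and 28 did not pass the test (limma, Benjamini-Hochberg adjusted p below 0.05 over all 17810 genes). The fold changes, on the log2(value + 1) scale, ran from -0.475 to 0.18 with a median of -0.21, so most were reductions of modest size. Of all genes tested, 39% were called in this comparison, 19.9% as lower and 19.1% as higher, with a median of 0.0048. In bulk tissue, fewer cells of a type and less RNA per cell cannot be told apart. All 10 Het fluoxetine libraries lay below all 10 Het vehicle libraries for 23 members, and 2.4% of all genes did so. None of the members lay above throughout, against 1.72% of all genes.

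In complex I, 24 members were lower, 1 was higher and 11 did not pass, with a median log2 fold of -0.22. The division into core and accessory subunits was made after the values had been seen. Of the 29 accessory subunits, which surround the catalytic core, 22 were lower and none was higher (median -0.22). Of the 7 nuclear-encoded core subunits, which hold the flavin and the iron-sulphur clusters, 2 were lower and 1 was higher (median -0.060). Whether accessory and core subunits differ was not tested.

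Ndufa2, a small accessory subunit, fell furthest. Its normalised read count was 738.2 at the lowest, 812.6 at the median and 881.9 at the highest in Het fluoxetine libraries. In Het vehicle libraries the corresponding values were 986.4, 1139.0 and 1256.6, so the groups did not overlap. The log2 fold was -0.475 (SE 0.069, limma adjusted p = 6.53e-07). Ndufv3, an accessory subunit of the NADH-oxidising arm, stood at 968.4, 1078.9 and 1153.2 in Het fluoxetine libraries, and at 1187.6, 1264.2 and 1378.3 in Het vehicle libraries. It fell by 0.24 on the log2 scale (SE 0.035, limma adjusted p = 8.92e-07), again with no overlap. Ndufa3 (-0.39), Ndufa1 (-0.35), Ndufs6 (-0.33) and Ndufa6 (-0.29) were also lower. Ndufa4 (-0.29) is counted here by its symbol, although its protein is now placed in complex IV.

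Ndufs1 was the only member of complex I called as higher. It encodes the large iron-sulphur subunit of the core and lies on chromosome 1 at 63143596 to 63176833 (GRCm38). Its normalised read count in Het fluoxetine libraries was 3819.0 at the lowest, 4037.3 at the median and 4398.8 at the highest. Het vehicle libraries stood at 3362.8, 3528.7 and 3886.3, so the top of the vehicle group reached into the fluoxetine group. The log2 fold was 0.18 (SE 0.039, limma adjusted p = 0.000185). Ndufv1, the flavin-carrying core subunit, was at -0.10 (SE 0.053, limma adjusted p = 0.119) and did not pass the test.

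Complex II had the smallest shift, with 2 of 4 members lower and a median log2 fold of -0.061. Sdhb, the iron-sulphur subunit of succinate dehydrogenase, was at 2345.8, 2447.5 and 2687.1 (lowest, median and highest) in Het fluoxetine libraries and at 2600.1, 2805.9 and 2890.0 in Het vehicle libraries. It fell by 0.18 (SE 0.038, limma adjusted p = 0.000226). Sdhc, a membrane anchor, was lower by a log2 fold of -0.11 (SE 0.043, limma adjusted p = 0.0302). Sdha, the catalytic partner of Sdhb, was at -0.0081 (SE 0.026, limma adjusted p = 0.836), so the subunits of this 4-gene complex did not share 1 value.

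In complex III, 6 of 9 members were lower and 1 was higher (median -0.21). Among the 5 small subunits, Uqcr11, Uqcr10, Uqcrq and Uqcrh were lower, the first 3 of them by 0.33 to 0.34 on the log2 scale. The pair of large core proteins went in opposite directions. Uqcrc1 fell by 0.21 (SE 0.050, limma adjusted p = 0.000998), and Uqcrc2 rose by 0.13 (SE 0.048, limma adjusted p = 0.0287). The calls for Uqcrc2 and, in complex IV, Cox6b2 were each lost in 4 of the 20 fits that left out 1 library each. Of the subunits that carry electrons, Cyc1 (cytochrome c1) fell by 0.16 (SE 0.048, limma adjusted p = 0.0079). Uqcrfs1, the Rieske iron-sulphur protein, was at 0.088 (SE 0.062, limma adjusted p = 0.272).

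In complex IV, 12 of 15 members were lower and none was higher (median -0.23). Cox4i1, the ubiquitous isoform of subunit 4, lies on chromosome 8 at 120668222 to 120674207. It was at 8928.2, 9182.0 and 10165.8 (lowest, median and highest) in Het fluoxetine libraries, and at 10345.3, 11286.9 and 12637.4 in Het vehicle libraries. The groups did not overlap, and the log2 fold was -0.27 (SE 0.051, limma adjusted p = 4.41e-05). Some isoform pairs were called as lower together, and others were not. Cox6a1 (-0.33, SE 0.064) and its muscle counterpart Cox6a2 (-0.34, SE 0.081) both fell, as did Cox6b1 (-0.20, SE 0.049) and Cox6b2 (-0.38, SE 0.14). Cox7a2 fell by 0.28 and Cox8a by 0.24. Cox5a, which regulates the enzyme together with subunit 4, fell by 0.16 (SE 0.054, limma adjusted p = 0.0174). Cox4i2, the oxygen-sensitive isoform of subunit 4, was at -0.23 (SE 0.15, limma adjusted p = 0.212), and Cox7a1 at -0.0020 (SE 0.26, limma adjusted p = 0.997).

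In complex V, 7 of 17 members were lower and none was higher (median -0.088). The calls fell on subunits with coding lengths of 156 to 639 bases, but members that were not called, such as Atp5j (324), Atp5g2 (438) and Atp5h (483), lay in the same range. Atp5e, the epsilon subunit of the rotor, was at 929.9, 997.3 and 1149.2 (lowest, median and highest) in Het fluoxetine libraries and at 1142.7, 1356.9 and 1634.1 in Het vehicle libraries. The ranges overlapped only by the top fluoxetine and the bottom vehicle library, and the log2 fold was -0.42 (SE 0.054, limma adjusted p = 4.65e-08). Atp5g1, on chromosome 11 at 96068852 to 96075670, was at 2869.7, 3080.9 and 3347.7 against 3476.4, 3684.0 and 3898.9, without overlap. It fell by 0.26 (SE 0.035, limma adjusted p = 1.65e-07). Atp5g3, which encodes the same mature c ring protein, fell by 0.26 (SE 0.047), and Atp5g2 was at -0.30 with an SE of 0.23 (limma adjusted p = 0.305).

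The large subunits of the catalytic head did not pass the test. Atp5a1 (alpha) was at -0.032 (SE 0.035, limma adjusted p = 0.503), and Atp5b (beta) at 0.078 (SE 0.043, limma adjusted p = 0.151). The highest Het fluoxetine value of Atp5b, 35408 in male replicate 1, lay far above the median of 25589. Of the 4 stalk subunits only Atp5o was lower (-0.16, SE 0.031), and Atp5f1 was at 0.091 (SE 0.052, limma adjusted p = 0.167).

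**Figure D2:**
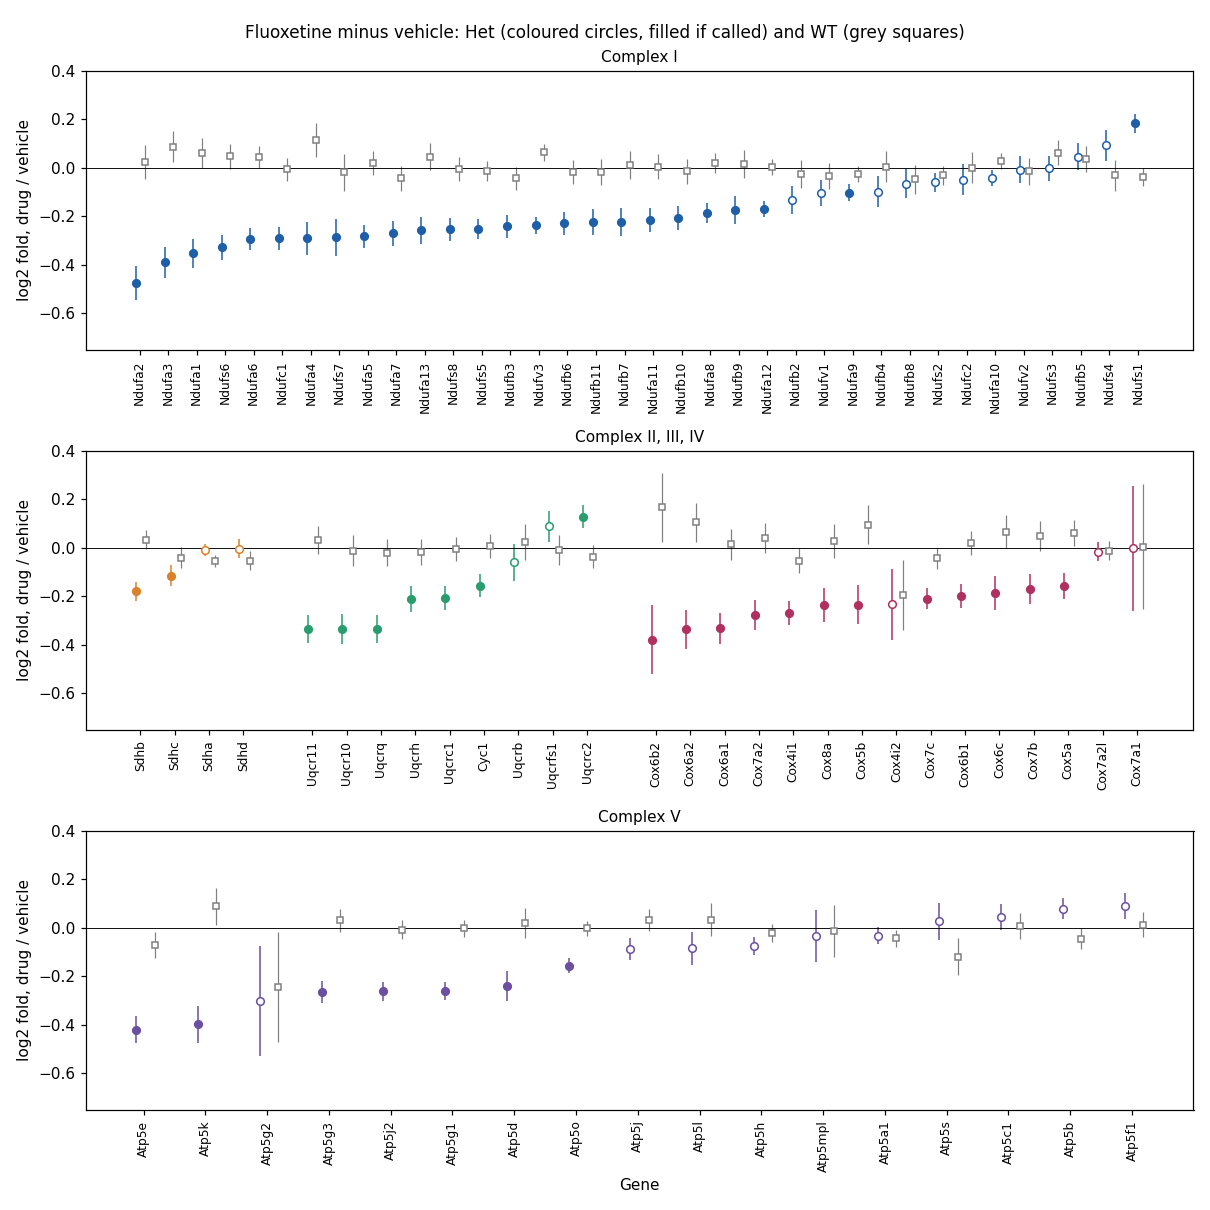
Log2 fold of fluoxetine over vehicle for each member, by complex, with bars of 1 SE. Coloured circles are Het mice, filled where the member was called (51 lower and 2 higher), and grey squares are WT mice, in which none was called.

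Members were also counted by coding length, and whether short and long members differ was not tested. Of the 60 members with a coding length of up to 600 bases, 43 were lower and none was higher, with a median log2 fold of -0.23. Of the 21 longer members, 8 were lower and 2 were higher (median -0.041). Across the 81 members, fold and coding length had a Spearman correlation of 0.58, given as a description because members share libraries and are not replicates. The correlation had the opposite sign for Het against WT mice in vehicle (-0.64) and in lithium (-0.50), and the Het vehicle libraries are the reference of the fluoxetine comparison. Among all 1881 coding genes up to that length, 555 were lower and 244 higher (median -0.070). Among 13255 longer genes, 2765 were lower and 2909 higher (median 0.0099). Across all coding genes the correlation was 0.11 with coding length and -0.62 with the GC content of the transcript. For members it was -0.34 with GC content.

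**Figure D3:**
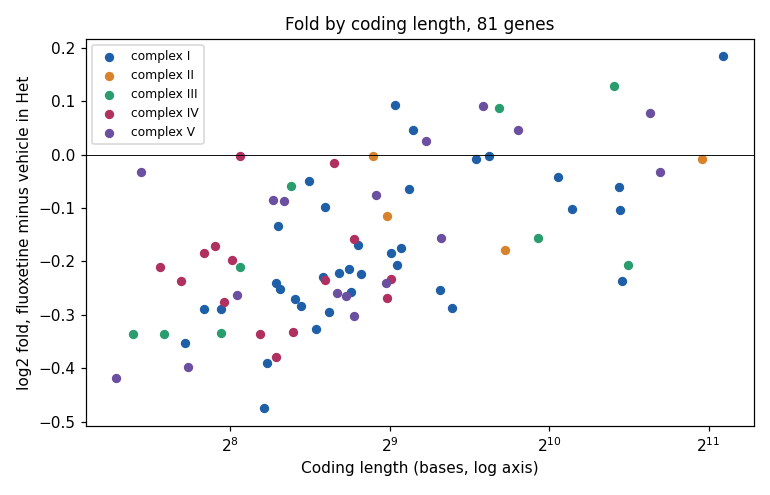
Log2 fold of fluoxetine over vehicle in Het mice against coding length (bases, log axis), 1 point per member, coloured by complex. The 60 short members have a median of -0.23, and Ndufs1, the longest, is at 0.18.

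In the mean over all members, each library's log2 deviation from the average library ran from -0.19 to -0.059 in the Het fluoxetine group, below 0 in 10 of 10 libraries. Of the 50 other libraries, 20 were below 0, and 8 lay below the highest Het fluoxetine library. WT vehicle libraries ran from -0.16 to 0.15, Het vehicle from -0.079 to 0.13, WT fluoxetine from -0.11 to 0.096, and Het lithium from -0.089 to 0.17. WT lithium libraries were the most spread, from -0.15 (male replicate 5) to 0.34 (female replicate 5), and the latter stood apart from the rest. Het fluoxetine females averaged -0.143 ± 0.0515 and males -0.117 ± 0.0368 (SD, n = 5 each).

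**Figure D4:**
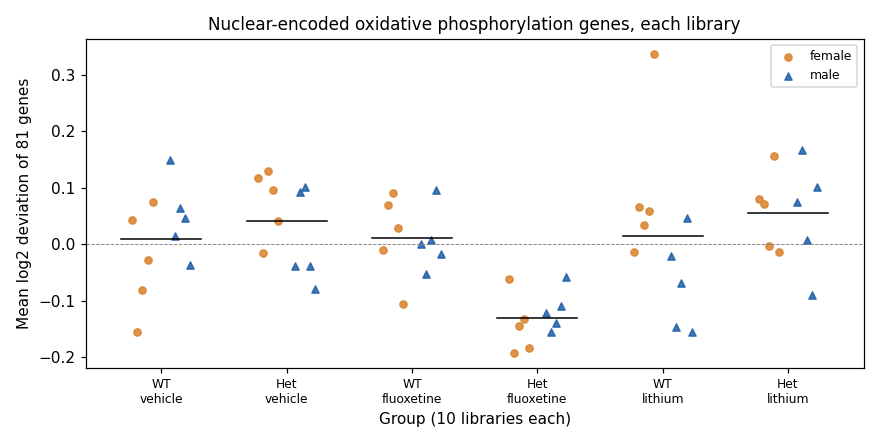
Mean log2 deviation of the 81 members in each library, by group (10 libraries each, circles for females and triangles for males), with black bars for group means. The Het fluoxetine libraries lie between -0.19 and -0.059, and 1 WT lithium female lies alone at 0.34.

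Other library properties moved with this shift, and their part in it was not tested. Genes of the cytosolic ribosome, which are short and highly expressed like many members, were lower for 57 and higher for 2 of 78 in Het fluoxetine mice (median -0.19). In these 10 libraries the correlation across genes between deviation and GC content was -0.315 to -0.105. In Het vehicle libraries it was -0.135 to 0.208. The lowest values of all lay outside these groups, at -0.49 in WT lithium male replicate 5 and -0.36 in WT vehicle female replicate 2. With log transcript length the correlation was 0.042 to 0.221 in Het fluoxetine and -0.119 to 0.058 in Het vehicle libraries. It was 0.197 in WT lithium male replicate 5 and 0.138 in WT vehicle female replicate 2. A group of 16 pseudogenes was chosen as called strongly lower in Het than in WT mice given fluoxetine. They were low in 10 libraries, namely 9 of the 10 Het fluoxetine libraries, which follows from that choice, and WT vehicle female replicate 2. That WT library had a member mean of -0.16, within the range of the Het fluoxetine libraries. WT lithium male replicates 2 and 5, which were outside these 10 libraries, were about as low, both at -0.15. The Het fluoxetine library outside the set, male replicate 1, was at -0.12, within the range of its group.

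Corrections, all chosen after seeing the data, moved the Het fluoxetine result. With a term for the 10 low libraries, only Atp5b was called, as higher, and the median was -0.11 with a median SE of 0.098 in place of 0.053. Those libraries were set by pseudogenes chosen as lower in Het fluoxetine mice. As 9 of them are Het fluoxetine libraries, the term and the group are told apart only through Het fluoxetine male replicate 1 and WT vehicle female replicate 2. Het fluoxetine male replicate 1 also held the highest Atp5b value of all libraries, 35408. How far the Atp5b call rests on that library was not tested. After correction for transcript length, 29 members were lower and 3 higher (median -0.066), and 30 of these calls were shared with the 53. After correction for GC content, 47 were called (median -0.14), 41 of them shared. Calls over all genes also fell, from 6952 to 49 with the library term, 6078 with the length correction and 3493 with the GC correction. Among the named members, the GC correction lost the call for Uqcrc2, Cox4i1, Cox6a1, Cox6b2 and Cox8a, and turned Cyc1 to 0.068 (limma adjusted p = 0.157). With the length correction Cox6b1 and Cox8a turned to 0.013 and 0.0074, and Cox5a, Cox6a2, Cox6b2 and Cox7a2 were no longer called.

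Markers of other cell types also moved between the Het groups, and their part in the result was not tested. Of 8 excitatory neuron markers, 4 were lower and none higher (median -0.14): Camk2a, Nrgn, Slc17a7 and Neurod2. Their summed normalised read count ran from 144623 to 200828 in Het fluoxetine libraries and from 160801 to 252613 in Het vehicle libraries. Of 8 endothelial markers, 5 were lower and none higher (median -0.19), with sums of 5960.9 to 7465.7 against 6598.1 to 10431.8. No marker of either list was at 0 throughout a group. Of all genes, 19.9% were lower and 19.1% higher. Inhibitory neuron markers had 1 higher and 2 lower of 8, and oligodendrocyte precursor markers 2 higher and 2 lower of 6. Of 8 meningeal fibroblast markers, 2 were higher and none lower. Astrocyte markers and pericyte and smooth muscle markers had 1 lower each and none higher. No oligodendrocyte or microglia marker was called.

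In WT mice, fluoxetine called none of the 81 members with limma, against 8.43% of all genes. Only 1 member, Sdha, had an unadjusted p below 0.05, and edgeR also called none. The median log2 fold was 0.0011. The 3 members with the smallest p were Sdha at -0.053 (SE 0.026, limma adjusted p = 0.209), Ndufv3 at 0.064 (SE 0.035, limma adjusted p = 0.285) and Ndufa4 at 0.115 (SE 0.068, limma adjusted p = 0.333). Sdha was called once 3 libraries with large residuals were left out (-0.069, limma adjusted p = 0.0421).

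Whether the response to fluoxetine differed between genotypes was tested as an interaction. The difference passed the test for 44 members, of which 43 had a lower and 1 a higher response in Het than in WT mice (median -0.20). Of all genes 24% passed, 12% in the lower and 11.9% in the higher direction. By complex, the lower calls numbered 21 of 36, 1 of 4, 4 of 9, 10 of 15 and 7 of 17 for complexes I to V. Ndufs1 was the member with the higher response, with an interaction of 0.22 (SE 0.055, limma adjusted p = 0.00323). The lower ones with the smallest p were Ndufv3 (-0.30, SE 0.050), Ndufa6 (-0.34, SE 0.064), Ndufa3 (-0.48, SE 0.091) and Atp5g1 (-0.26, SE 0.050). Their limma adjusted p-values ran from 6.64e-05 to 0.000418. Leaving out WT vehicle female replicate 2 gave 32 calls. With GC correction 25 members were called, 23 of them among the 44, and with length correction 15 (median 0.014), 12 of them among the 44. The term for the 10 low libraries kept none of the 44 and called Atp5b, as higher, a gene whose highest value lay in Het fluoxetine male replicate 1. Over all genes the calls went from 4272 to 1328, 3148 and 8 with these 3 changes.

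The genotype comparison in fluoxetine-treated mice uses the same Het fluoxetine libraries, so its values are not independent of those above. Het mice had less RNA of 47 members and more of 2 than WT mice (median -0.16, against -0.012 over all genes). Of all genes 39.5% were called, 19.9% as lower and 19.6% as higher. Lower calls numbered 23 of 36 in complex I, 2 of 4 in complex II, 5 of 9 in complex III, 10 of 15 in complex IV and 7 of 17 in complex V. Ndufs1 was at 3412.5, 3590.4 and 3757.8 (lowest, median and highest) in WT fluoxetine libraries, below all Het fluoxetine libraries. It was the only member with all Het libraries above all WT libraries (3.44% of all genes), with a log2 fold of 0.18 (SE 0.039, limma adjusted p = 0.00028). Uqcrc2 was higher by 0.15 (SE 0.048, limma adjusted p = 0.00931). For 8 members all Het libraries lay below all WT libraries, against 1.66% of all genes. The 4 lower members with the smallest p were Ndufv3 (-0.23, SE 0.035), Ndufa2 (-0.44, SE 0.069), Ndufa6 (-0.28, SE 0.045) and Atp5g1 (-0.20, SE 0.035). GC correction gave 26 lower and 4 higher members, and length correction 16 lower and 11 higher with a median of 0.011. The term for the 10 low libraries called only Atp5b, which was not among the 49. Its highest value lay in Het fluoxetine male replicate 1. Over all genes the calls went from 7042 to 2328, 5806 and 7 with these changes.

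**Figure D5:**
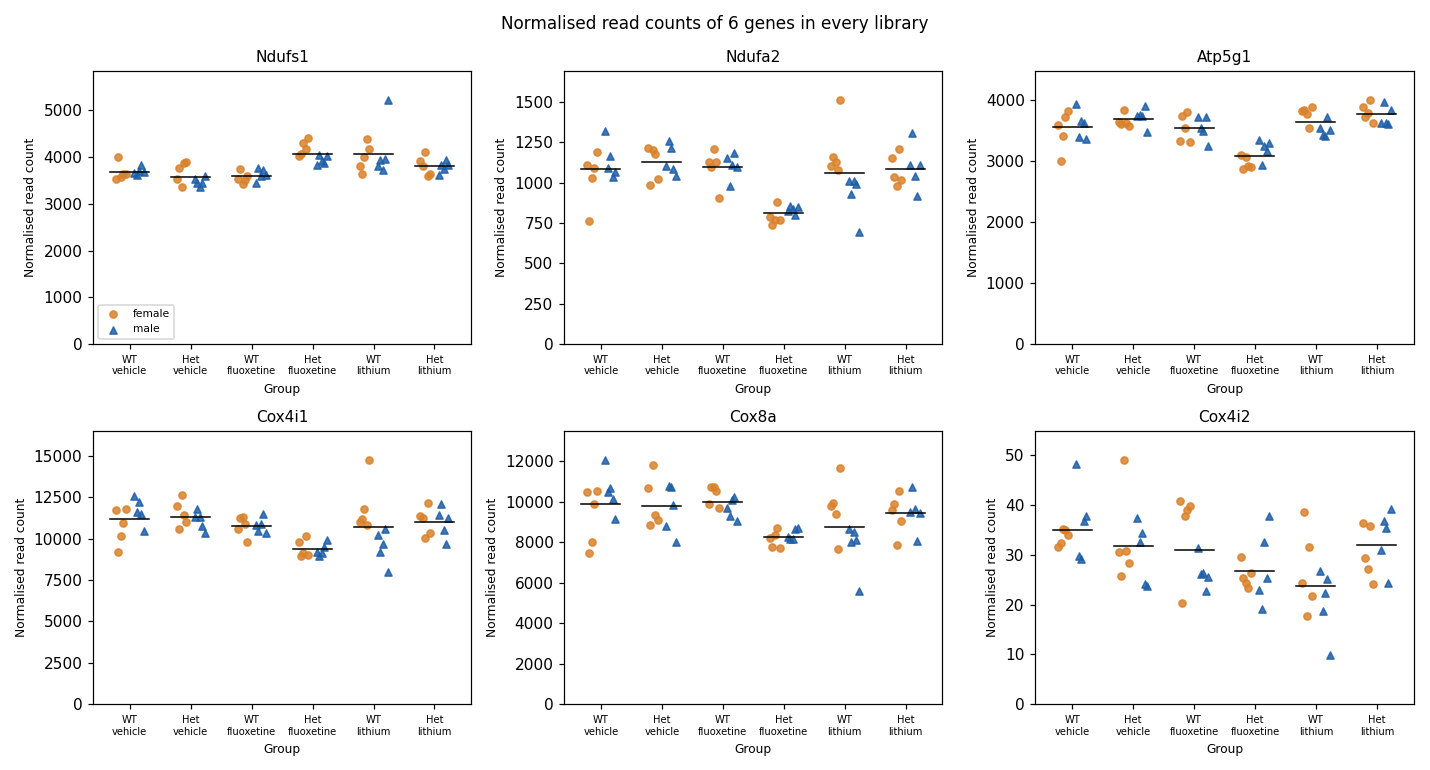
Normalised read counts of Ndufs1, Ndufa2, Atp5g1, Cox4i1, Cox8a and Cox4i2 in every library (circles for females, triangles for males, black bars for group means). Het fluoxetine libraries are the highest Het group for Ndufs1 and the lowest for the next 4 genes, and WT lithium libraries have the lowest mean for Cox4i2.

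Without drug, no member passed the test between the genotypes. In vehicle, limma called none of the 81 members, against 0.59% of all genes. The median log2 fold was 0.018, 4 members had an unadjusted p below 0.05, and edgeR called none. Cox7a2 was at 0.165 (SE 0.061, limma adjusted p = 0.264), Atp5k at 0.20 (SE 0.078, limma adjusted p = 0.297) and Ndufa4 at 0.16 (SE 0.068, limma adjusted p = 0.391). All 3 have coding lengths of up to 600 bases, as do 60 of the 81 members. In lithium-treated mice limma again called none, against 0.0281% of all genes, with 7 members under an unadjusted p of 0.05 and none called by edgeR. The smallest p-values belonged to Cox4i2 at 0.47 (SE 0.15, limma adjusted p = 0.205), Atp5j2 at 0.11 (SE 0.039, limma adjusted p = 0.258) and Ndufb2 at 0.16 (SE 0.057, limma adjusted p = 0.277).

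Lithium in WT mice changed few members and in mixed directions. It called 5 as higher and 2 as lower, with a median log2 fold of 0.0075. Of all genes 19.2% were called, 9.34% as higher and 9.87% as lower. Atp5f1, the stalk subunit b of the ATP synthase, was at 5450.3, 6072.1 and 7553.5 (lowest, median and highest) in WT lithium and at 5189.6, 5514.2 and 6059.2 in WT vehicle libraries. The ranges overlapped, and it rose by 0.19 (SE 0.052, limma adjusted p = 0.00677). Ndufs1 rose by 0.13 (SE 0.039, limma adjusted p = 0.0111) and Ndufv2, a core subunit of complex I, by 0.16 (SE 0.055, limma adjusted p = 0.0322). Cox6a2 rose by 0.26 (SE 0.081, limma adjusted p = 0.0165), and Atp5g3 was the remaining higher member (0.14, SE 0.047).

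Cox4i2, on chromosome 2 at 152754173 to 152765037, fell furthest under lithium in WT mice. Its normalised read count was 9.8, 23.4 and 38.6 (lowest, median and highest) in WT lithium libraries and 29.1, 34.4 and 48.1 in WT vehicle libraries. The ranges overlapped, and the log2 fold was -0.60 (SE 0.15, limma adjusted p = 0.00276). In the brain Cox4i2 is known from pericytes, and 7 of 8 pericyte and smooth muscle markers were lower in the same comparison, none higher (median -0.46). Their summed counts were 4466.2 to 8631.6 in WT lithium and 8003.6 to 9482 in WT vehicle libraries, and no marker was at 0 throughout. Other lists were lower too, with none of their markers higher: 7 of 8 meningeal fibroblast (median -0.45), 7 of 8 microglia (-0.29), 6 of 8 endothelial (-0.36) and 5 of 8 astrocyte markers (-0.24). The part of these cell types in the fall of Cox4i2 was not tested. Cox8a fell by 0.19 (SE 0.070, limma adjusted p = 0.0495), a call that 11 of the 20 fits without 1 library lost. The call of Ndufv2 was lost in 9 of 20.

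The lithium counts rested on few libraries. Leaving out WT lithium male replicate 2 gave 12 calls, and leaving out WT vehicle female replicate 4 or male replicate 2 gave 4. A fit to the compared groups alone called 2 members and a GC correction 4. In Het mice, lithium called no member with limma or edgeR, against 0.983% of all genes, and 7 had an unadjusted p below 0.05. Uqcrfs1 came closest, at 0.22 (SE 0.062, limma adjusted p = 0.0603), and passed when Het lithium female replicate 1 or male replicate 4 was left out. Sdhd, a membrane anchor of complex II, was at 0.095 (SE 0.039, limma adjusted p = 0.236), and Cox5a at 0.13 (SE 0.054, limma adjusted p = 0.264).

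No difference in the lithium response between genotypes was called by limma or edgeR, against 0.0674% of all genes, and 1 member had an unadjusted p below 0.05. That member was Cox4i2, with an interaction of 0.63 (SE 0.21, limma adjusted p = 0.228). Ndufa5 (-0.135, SE 0.069) and Ndufa4 (-0.18, SE 0.097) followed. Between the sexes, averaged over all groups, no member was called by either test, against 0.107% of all genes, with 2 at an unadjusted p below 0.05. Uqcrh, the hinge protein of complex III, was at 0.081 (SE 0.031, limma adjusted p = 0.999), female minus male, and Atp5l at 0.086 (SE 0.039, limma adjusted p = 0.999). The median over members was 0.017.

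Genes that serve the same system but lie outside the rule were counted in the same comparison of Het mice, fluoxetine against vehicle, in which 19.1% of all genes were higher and 19.9% lower. Of the 13 mRNAs encoded in mitochondrial DNA, 4 were higher and 1 lower (median 0.23). The higher ones were mt-Nd4l (0.61), mt-Co2 (0.76), mt-Nd5 (0.23) and mt-Nd1 (0.26), and mt-Atp8 was lower (-0.44). Their mean deviation in the 10 libraries ran from -0.080 to 0.43, and in Het vehicle libraries from -0.315 to 0.621. Of 48 measured assembly factors, which help to build the complexes, 7 were higher and 10 lower (median -0.0059). For these 2 lists the share called is near that of all genes. Atpaf1, which assembles the head of the ATP synthase, rose by 0.25 (SE 0.045) and Uqcc1 by 0.18 (SE 0.034), and Pet100 and Cox17 fell by 0.38 and 0.26 on the log2 scale.

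Among 20 regulators of mitochondrial biogenesis, 8 were higher and 5 lower (median 0.093). Ppara, a receptor that drives fatty acid oxidation genes, rose by 0.50 (SE 0.097) and Ppargc1a, the coactivator PGC-1alpha, by 0.24 (SE 0.056). The related coactivator Pprc1 fell by 0.38 (SE 0.044) and the receptor Esrra by 0.34 (SE 0.045). Of 13 tricarboxylic acid cycle genes, 3 were higher and 6 lower (median -0.021), with Dld at 0.25, Sucla2 at 0.21, Idh3g at -0.17 and Fh1 at -0.14. Of 11 other respiratory chain genes, 2 were higher, the somatic cytochrome c gene Cycs (0.32) and Etfdh (0.11). Atpif1 (-0.21), the inhibitor of ATP synthase, Etfb (-0.20) and Ndufa4l2 (-0.29) were lower. These lists were chosen with earlier results of the same data known, and their counts support no statement about direction.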

How the data were processed

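RNA of 60 prefrontal cortex samples was sequenced with a kit that keeps the strand, per the labels' protocols. The submitters' processing notes list Salmon 0.11.2, DESeq2 1.19.11, R 3.6.0 and GRCm38 but give no roles. The sources used here do not say whether strand was used in counting. The authors deposited a table that holds a signal for each gene, here named the normalised read count. Each library's values were whole multiples of its own smallest step, which is how read counts look after division by 1 size factor. Undoing that division returned whole reads, to within 0.001, for 100% of values. Symbols and coordinates came from GENCODE M21, which held 18077 of the 18088 gene identifiers. Reads of near-identical copies and pseudogenes of small subunits could have been split by the authors' counting, so such members are less certain.

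The 17810 genes that reached 10 in 5 or more libraries were log-transformed as log2(value + 1) and fitted with limma 3.58.1 (R 4.3.3; eBayes trend and robust), using 12 group means. A call means an adjusted p (Benjamini-Hochberg) under 0.05 in that comparison, of which there were 10. Fold changes on this scale understate the change of low genes. Either counts or normalised values had been planned for, and since normalised ones were found, the count test served as an alternative. Named members were the 4 called ones with the smallest p in each direction, or else the 3 with the smallest p, with a fixed set of catalytic subunits and isoform pairs. Other names were chosen after their values were seen. Members, lists and rules were chosen with earlier results of these data known. Alternatives were TMM scaling, no filter, a pseudocount of 5, the compared groups alone, the replicate number as a block, and each library left out. Chosen after seeing the data were edgeR 4.0.16 on the recovered reads, GC and length corrections (loess, span 0.3), a term for 10 libraries, and a fit without 3 libraries. The fit was tested on simulated counts drawn without GC, length or library trends, so that test does not address such trends.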

Additional observations from a re-analysis of the deposited data

Results flagged for a closer look

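The response to fluoxetine differed between the genotypes for 44 members by the interaction test. Among those named, the interaction was 0.222 for Ndufs1, -0.30 for Ndufv3, -0.339 for Ndufa6, -0.476 for Ndufa3 and -0.258 for Atp5g1 on the log2 scale.

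Sets of 5 libraries were examined, 72 for mean levels and 156 for 13 called members, and normalised read counts are given to 3 significant digits. Of these sets, 22 held a library far from the other 4. Chance alone flags about 1 in 20 such sets. WT lithium female replicate 5 stood apart in 6 of them. Its mean log2 deviation over all members was 0.337, with the nearest library at 0.0657. It was 0.363 for complex I, 0.236 for complex II, 0.337 for complex III and 0.382 for complex IV, and its Ndufa2 count was 1510. WT lithium male replicate 5 was low in Cox8a (5610) and Ndufa2 (692), and high in Ndufs1 (5220).

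Among Het fluoxetine libraries, female replicate 1 was the highest for complex V (-0.0248) and for Atp5e (1150), male replicate 5 was the highest for complex I (-0.0712), and female replicate 5 was the lowest for Ndufv3 (968). Among WT fluoxetine libraries, female replicate 5 was low for complex II (-0.137) and Atp5f1 (4570), male replicate 4 was high for complex V (0.0627), and female replicate 2 was low in Cox4i2 (20.4). Among Het vehicle libraries, female replicate 3 was high in Atp5g1 (3840) and Cox4i2 (48.9), and male replicate 5 was low in Cox6a2 (108). WT vehicle female replicate 2 was high in Ndufs1 (4010), and Het lithium female replicate 3 was low in Ndufv3 (1120).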

How the results depend on the processing

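Counts of called members stayed within 1.5 times of those reported with TMM scaling, with no filter, with a pseudocount of 5 and with edgeR, and the counts of 0 stayed at 0. The GC correction gave 30 called members for genotype in fluoxetine, 4 for lithium in WT and 25 for the fluoxetine by genotype interaction, and turned Cyc1 to 0.0683 in the Het fluoxetine comparison. The length correction gave 27 for genotype in fluoxetine, 2 for fluoxetine in WT, 32 for fluoxetine in Het, 1 for lithium in Het and 15 for the interaction, and turned Cox6b1 to 0.013 and Cox8a to 0.00742. The term for the 10 low libraries gave 1 for genotype in fluoxetine, 1 for fluoxetine in Het and 1 for the interaction, and turned Cox5a to 0.0421. The compared groups alone gave 2 for lithium in WT. Without the 3 libraries with large residuals there was 1 for fluoxetine in WT and 1 for lithium in Het. The cause of these changes was not tested.

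Leaving out each library in turn gave 50 to 54 calls for fluoxetine in Het, 46 to 52 for genotype in fluoxetine, 32 to 49 for the interaction, 4 to 12 for lithium in WT and 0 to 1 for lithium in Het. The counts of 0 for the other comparisons stayed at 0. Same-numbered replicates did not deviate together: the 330 correlations ran from -0.337 to 0.375 with a median of 0.000406, and 8 of 60 libraries correlated best with their own number. With the replicate number as a block, 53 members were called for fluoxetine in Het, 48 for genotype in fluoxetine, 44 for the interaction and 6 for lithium in WT, where Cox8a was lost. In the Het fluoxetine comparison the SE was 0.26 for Cox7a1 and 0.23 for Atp5g2, against a median of 0.053 over members, so changes of the size seen in other members could not be called for them.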
